A study of Homo sapiens with 29 samples.

Results

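FOXA1 is a forkhead pioneer transcription factor: it binds its motif on nucleosomal DNA, opens the chromatin around it and lets other factors in. In luminal prostate cells it works beside the androgen receptor, at enhancers more than at promoters. WX-02-23 is a covalent ligand of FOXA1. The regions described here had a peak when extra FOXA1 was induced, lacked one without induction, and still had a peak under that ligand. They were chosen by a rule on peak lists: a region with a peak in both libraries of WT-FOXA1 cells given doxycycline (Dox) and vehicle, in neither library of the same cells without Dox, and in both libraries given Dox and WX-02-23. Of 166696 regions obtained by merging the peaks of all 29 libraries, 5482 met the rule (3.29%), and they are called kept regions below.

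Open chromatin was mapped by ATAC-seq: a transposase inserts adapters where DNA is accessible, and the tagged fragments are sequenced. All cells were 22Rv1, an established line of human prostate carcinoma. There were 15 libraries of parental cells, in groups of 3. The groups were vehicle (DMSO, 0.1%), WX-02-23 at 20 µM, WX-02-43 at 20 µM, PladB at 10 nM and PladB at 100 nM. WX-02-43 is the stereoisomer of WX-02-23, and PladB (pladienolide B) is a natural product that binds the SF3b complex of the spliceosome. The other 14 libraries, in groups of 2, came from engineered cells. All engineered cells overexpressed Y36C-PHF5A, a mutant of an SF3b subunit, and carried a Dox-inducible transgene for either WT-FOXA1 or C258A-FOXA1, in which the cysteine bound by WX-02-23 is replaced. Both lines were given Dox with DMSO, with WX-02-23 (20 µM) or with PladB (100 nM), and the WT-FOXA1 line was also given DMSO without Dox. Treatments lasted 3 h. The labels do not say whether an engineered line is 1 clone or whether replicates came from separate cultures, so p-values measure only the spread between these libraries, which may be technical. No label states that endogenous FOXA1 was removed, and a C258A-FOXA1 group without Dox was not analysed here, so a peak in that line cannot be assigned to the transgene.

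List length and depth differed between the groups that define the regions. WT-FOXA1 lists held 88140 and 85009 peaks with Dox and DMSO, 69814 and 67195 without Dox, and 67815 and 62832 with Dox and WX-02-23. The background level of the peak caller, a relative measure of depth, was 0.869 and 0.844 reads per base with DMSO, 0.809 and 0.723 without Dox, and 0.903 and 1.256 with WX-02-23. The lists treated with WX-02-23 were thus short with a background above both DMSO lists, and those without Dox were short with a background below both. At lower background still, 0.546 and 0.587, the C258A-FOXA1 lists with PladB held more peaks, 74554 and 77331. Those lists are of another line and treatment, and the part of depth in list length was not tested. Across all 29 lists the background ran from 0.546 to 1.502 reads per base. A peak can fall below the detection limit of its list, so lack of a peak is not proof of closed chromatin. In a pool of cells, fewer open cells and less opening per cell cannot be told apart. Parental and engineered lists carry different processing folders in their peak names, so cell line and batch cannot be told apart, and tests were made within a line.

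Dox gave 12964 induced regions in the WT-FOXA1 line (7.78% of all regions), held by both DMSO libraries with Dox and by neither without it. There were 19679 without DMSO replicate 1 and 21068 without DMSO replicate 2. After WX-02-23, 42.3% of them were kept in both libraries. A further 2771 induced regions had a peak in 1 of 2 WX-02-23 libraries, and 4711 had none and are called lost regions. Lost regions numbered 9794 without DMSO replicate 1 and 11176 without DMSO replicate 2. These counts follow from the rule and are a description. Lists cut to equal length gave 6205 induced regions, of which 3787 (61.0%) were kept and 1246 lost.

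Kept regions were the stronger of the induced regions. Strength was taken as the percentile of the authors' p-value within a list, with 100 for the strongest peak, averaged over both DMSO lists with Dox. The median was 47.2 for kept regions, 28.9 for those with 1 of 2 WX-02-23 libraries and 22.3 for lost regions, against 57.5 for all 68830 regions of both DMSO lists. Induced regions of every kind were thus weaker, at the median, than the open chromatin of these cells at large. The authors' fold enrichment over local background at kept regions had a median of 7.62 and 7.86 in the DMSO lists, against 5.88 and 5.96 at lost regions. Kept regions were also wider, with a median of 472 bp against 360 bp for lost regions.

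Strength sorted the induced regions steeply. The induced regions were divided by strength into 4 classes of near-equal size. In class 1, the weakest, with percentiles up to 20.5, 16.5% were kept and 62.0% lost. Class 2 had 26.7% kept and 46.8% lost, and class 3 had 45.8% and 28.9%. In class 4, from 49.0 up, 79.9% were kept and 7.87% lost. The DMSO lists enter the rule, so this is a description with no test. The weakest class still held 532 kept regions and the strongest 255 lost ones.

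**Figure D1:**
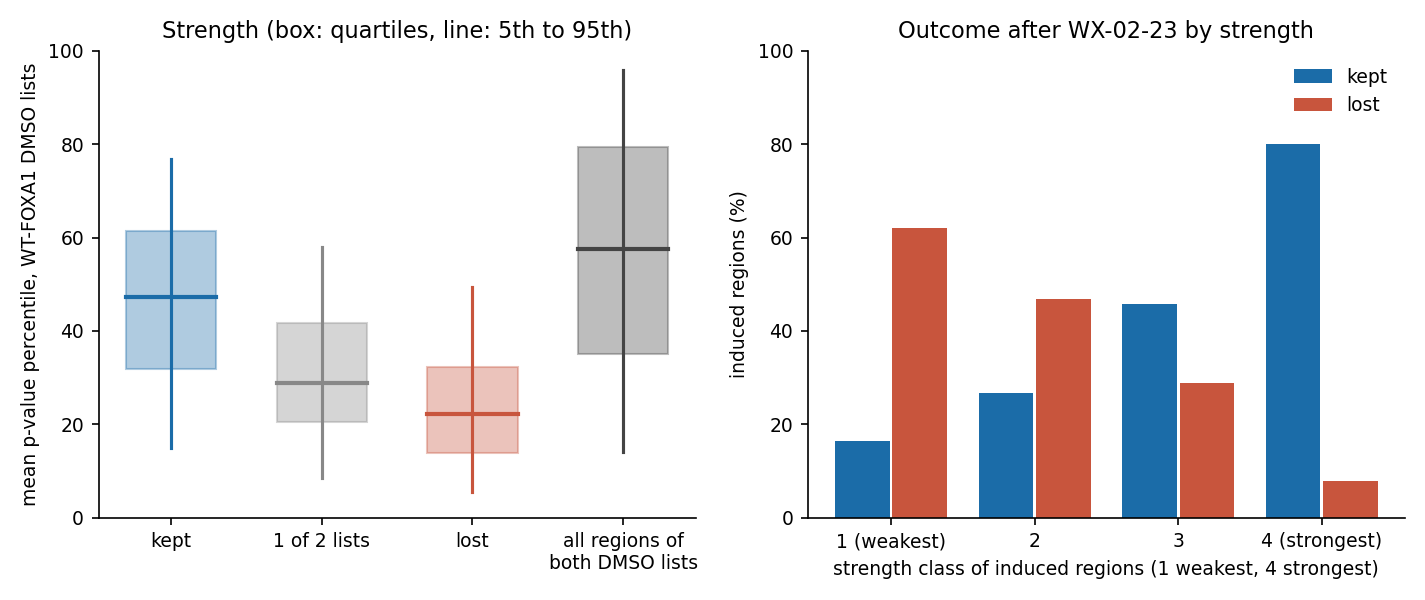
Left, mean percentile of the authors' p-value in the 2 WT-FOXA1 DMSO lists with Dox for kept regions, regions with a peak in 1 of 2 WX-02-23 lists, lost regions and all regions of both DMSO lists (line in box: median; box: quartiles; vertical line: 5th to 95th percentile); right, percent of induced regions kept and lost in each of the 4 strength classes. The kept median of 47.2 lies above the lost median of 22.3, and the kept share goes from 16.5% in the weakest class to 79.9% in the strongest.

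Kept regions mostly stood lower in rank after WX-02-23 than after DMSO. The percentile in the WX-02-23 lists minus that in the DMSO lists had a median of -7.39 at these regions, with quartiles of -18.7 and 4.48. Median fold enrichment there was 6.83 and 6.20 in the WX-02-23 lists. Ranks from lists of different length show no change by themselves, and both groups are in the rule. The position of the summit, the base with most fragments, differed by similar distances between treatments and between replicates: the median distance was 47 bp between the DMSO replicates, 49 bp between the WX-02-23 replicates, and 49 to 51 bp across treatments.

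Regions just inside and just outside the rule show how sharp its edges are. In 77 kept regions the weakest of the 4 required peaks had a −log10 q under 3, where peaks were called from 2. Their median percentile in the DMSO lists was 31.9, against 47.4 for the other 5405. Of the induced regions, the 2771 with 1 of 2 WX-02-23 libraries lay just outside. Elsewhere 1369 regions failed because 1 of 2 libraries without Dox held them, with a median percentile of 39.0. In parental cells 86.7% of those regions had a peak after DMSO (mean of 3 libraries), against 16.2% of the kept regions. A further 1118 failed because 1 of 2 DMSO libraries with Dox lacked them, and these were weak, with a median percentile of 9.07.

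The 5 strongest kept regions, all on build hg19, illustrate the class at its upper end. Their genes and sequences were not analysed here. The strongest spans positions 99371455 to 99372068 of chromosome 1. Its fold values in the WT-FOXA1 line were 16.8 and 17.5 after DMSO and 16.2 and 12.5 after WX-02-23. Fold values are the authors' own and rank peaks only within a list. The second lay on chromosome 9 from 18085261 to 18085967, with 15.7 and 18.3 after DMSO and 15.4 and 15.1 after WX-02-23. Both had a peak in all 6 C258A-FOXA1 libraries, in both WT-FOXA1 PladB libraries and in none of the 15 parental libraries. The third, on chromosome 22 from 28442260 to 28442979, showed fold values of 14.8 and 14.6 after DMSO and 11.3 and 10.9 after WX-02-23. The fourth, on chromosome 7 from 28736181 to 28736766, showed 15.8 in both DMSO lists and stood at a mean percentile of 81.9 after WX-02-23. They shared the pattern of the first pair in all other libraries, that is, open in every engineered library with Dox and without a peak in parental cells. The fifth, on chromosome 1 from 78503571 to 78504656, differed: 14 of 15 parental libraries held it, at fold values of 4.80 to 10.1, while neither library without Dox did.

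In the C258A-FOXA1 line most kept regions were open as well. After Dox and DMSO, 86.2% of them had a peak in replicate 1 and 88.1% in replicate 2, or 87.2% ± 1.3 (SD, n = 2). Of the 5482 regions, 4522 (82.5%) were held by both of these libraries, against 41.0% of all regions. All regions include many called in few lists, so the 68830 regions of both WT-FOXA1 DMSO lists are the closer comparison, and 85.4% of those were held by both C258A-FOXA1 DMSO libraries. Lost regions had a peak in 55.2% ± 2.5 (SD, n = 2). From strength class 1 to class 4 the C258A-FOXA1 DMSO share went from 61.7% to 96.8% for kept regions and from 44.8% to 83.3% for lost ones, and within each class kept regions were held more often than lost regions.

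Kept regions were also mostly open after WX-02-23 in the C258A-FOXA1 line. The share with a peak was 85.9% and 92.7% in the WX-02-23 libraries, and these values enclosed those after DMSO. The mean difference was 2.11 percentage points (SE 3.55, n = 2 and 2), and the two-sided exact permutation test gave a p of 1. A pair of groups of 2 cannot pass 0.05 in that test. Without WX-02-23 replicate 2 the difference was -1.31 points. WX-02-23 replicate 1 had the shorter list, with 76645 peaks against 92658. By region, 4610 (84.1%) were held by both WX-02-23 libraries, against 39.0% of all regions and 81.1% of the regions of both WT-FOXA1 DMSO lists. Held by both WX-02-23 and neither DMSO library were 90 kept regions (1.64%), against 1.47% of all regions and 0.790% of the regions of both WT-FOXA1 DMSO lists. The reverse applied to 26 (0.474%), against 1.58% and 1.51%. Only the 446 kept regions (8.14%) without a peak in either DMSO library of this line could show the first call. Only the 4522 held by both (82.5%) could show the reverse, against 41.0% of all regions. These shares of whole sets therefore do not compare rates among regions able to change. At the lost regions of the WT-FOXA1 line, the C258A-FOXA1 line held a peak in 42.0% and 59.4% after WX-02-23 and 53.4% and 56.9% after DMSO.

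The difference between the kept and lost shares was also taken in each C258A-FOXA1 library. Kept regions exceeded lost ones by 32.8 and 31.2 points after DMSO and by 43.9 and 33.3 points after WX-02-23. Both WX-02-23 values lay above both DMSO values, by 6.60 points on average (SE 5.32), which gives the smallest p that an exact permutation test of 2 against 2 can reach, 0.5 after adjustment. The larger WX-02-23 value came from the shorter list, and the part of list length was not tested. The size depended on single libraries: it was 1.33 points without WX-02-23 replicate 1 and 11.9 without replicate 2. Kept and lost regions were told apart by WX-02-23 lists of the WT-FOXA1 line. A response shared by both lines would thus raise this difference through the choice of regions.

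Over all 6 C258A-FOXA1 libraries, 3640 kept regions (66.4%) were held by every one, against 30.9% of all regions, 71.4% of the regions of both WT-FOXA1 DMSO lists and 20.1% of the lost regions. Only 195 (3.56%) had no peak in any of the 6. These were weaker, with a median percentile of 26.5 in the WT-FOXA1 DMSO lists against 54.9 for the 3640, and narrower, with a median of 387 bp against 497 bp. The strongest of the 195 lay on chromosome 7 from 85297119 to 85297610, at a mean percentile of 71.3 after DMSO and 80.6 after WX-02-23 in the WT-FOXA1 line, with fold values of 12.8 and 11.4 after WX-02-23 and 8.94 and 9.25 after PladB. The next were on chromosome 14 from 45642966 to 45643444 and on chromosome 7 from 78961800 to 78962463. None of these 3 regions had a peak in parental cells, so among all 29 libraries they were held by the 6 WT-FOXA1 libraries given Dox and no others.

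PladB inhibits splicing through SF3b, and the engineered cells carry a mutant of PHF5A, which lies at the PladB site of that complex. In the WT-FOXA1 line 83.1% of the kept regions had a peak in PladB replicate 1 and 93.7% in replicate 2, or 88.4% ± 7.5 (SD, n = 2). Lost regions had one in 40.0% and 66.2%. The lists held 71121 and 88735 peaks, and the lower share belongs to the shorter list in both classes. Both PladB libraries held 4434 kept regions (80.9%), against 36.7% of all regions, and neither held 219 (3.99%), against 48.4% of all regions. Among the regions of both WT-FOXA1 DMSO lists these shares were 82.8% and 4.45%, near those of the kept regions. The DMSO libraries of this line hold every kept region by the rule, so no test of PladB against them was made. Kept regions without a peak in either PladB library were weak, with a median percentile of 20.5 against 52.3 for those held by both.

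In the C258A-FOXA1 line, whose libraries are not in the rule, the PladB share could be set against DMSO. It was 76.8% and 77.8% after PladB, below both DMSO values. The mean difference was -9.85 points (SE 1.08, n = 2 and 2), again at the smallest p the exact permutation test can reach, which is 0.5 when adjusted (Benjamini-Hochberg) for the 3 tests of this line. With lists of equal length it was -5.18 points. The PladB libraries of this line were the shallowest of the series, at 0.546 and 0.587 reads per base against 0.750 and 0.866 after DMSO, and the part of depth in this difference was not tested. By region, 3854 (70.3%) were held by both PladB libraries, against 35.5% of all regions and 78.4% of the regions of both WT-FOXA1 DMSO lists. Held by both DMSO and neither PladB library were 261 (4.76%), against 2.71% of all regions and 2.43% of the regions of both WT-FOXA1 DMSO lists. The reverse applied to 14 (0.255%), against 0.468% and 0.368%. Only regions held by both DMSO libraries could show the first call. These were 82.5% of the kept regions, 41.0% of all regions and 85.4% of the regions of both WT-FOXA1 DMSO lists. Set beside all regions, the shares therefore do not compare rates among regions able to change.

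**Figure D2:**
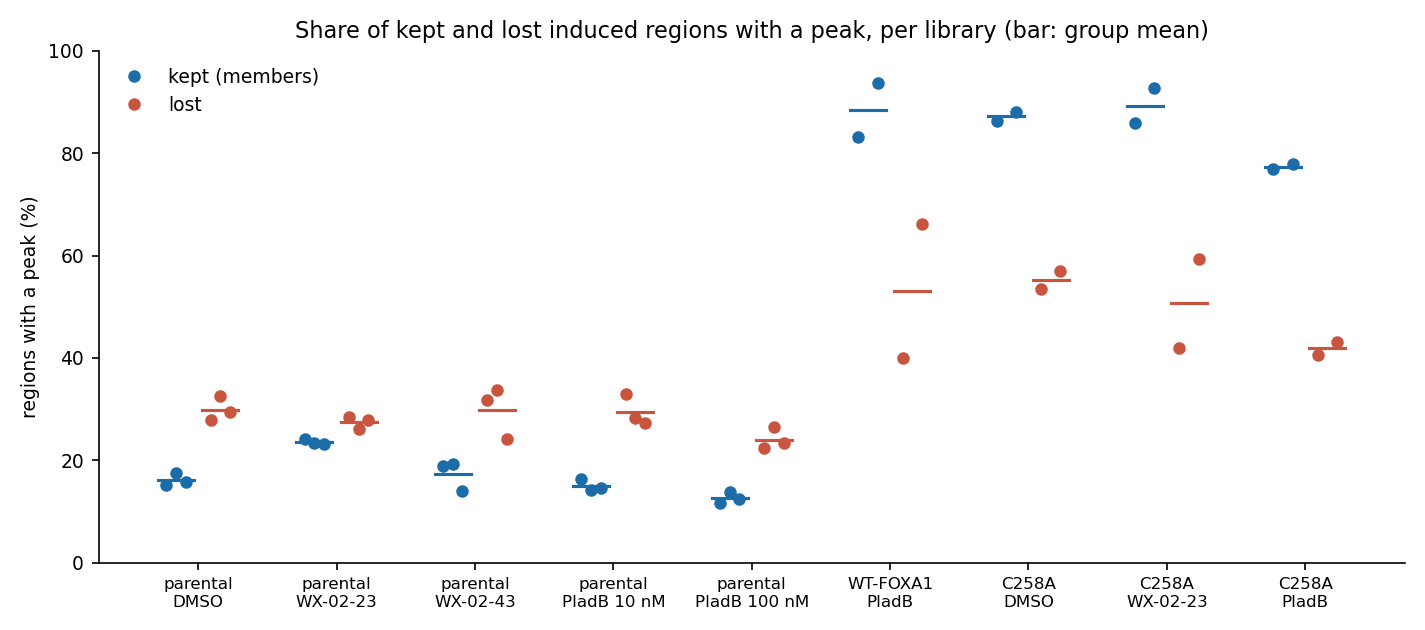
Percent of the 5482 kept (blue) and 4711 lost (red) induced regions with a peak in each library not used by the rule, by group; points are libraries and horizontal bars group means. Kept regions lie at 76.8% to 93.7% in the engineered lines and at 11.6% to 24.1% in parental cells, where the 3 WX-02-23 libraries are the highest.

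Parental cells, which carry no FOXA1 transgene, mostly lacked peaks at the kept regions. Of the 5482, 3836 (70.0%) had no peak in any of the 15 parental libraries, against 18.5% of all regions, 12.1% of the regions of both WT-FOXA1 DMSO lists and 52.4% of the lost regions. The rule already asks for no peak in cells without Dox, a filter that only the lost regions share. Of the 8344 regions of both WT-FOXA1 DMSO lists that no parental library held, 7971 were induced regions. At the other end 344 (6.28%) were held by all 15 parental libraries, against 32.6% of all regions and 69.6% of the regions of both WT-FOXA1 DMSO lists. These 344 had a median percentile of 47.2 in the WT-FOXA1 DMSO lists, close to the 48.4 of the 3836. They were wider, with a median of 585.5 bp against 464 bp. These regions had peaks in parental cells yet none in the engineered cells without Dox.

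**Figure D3:**
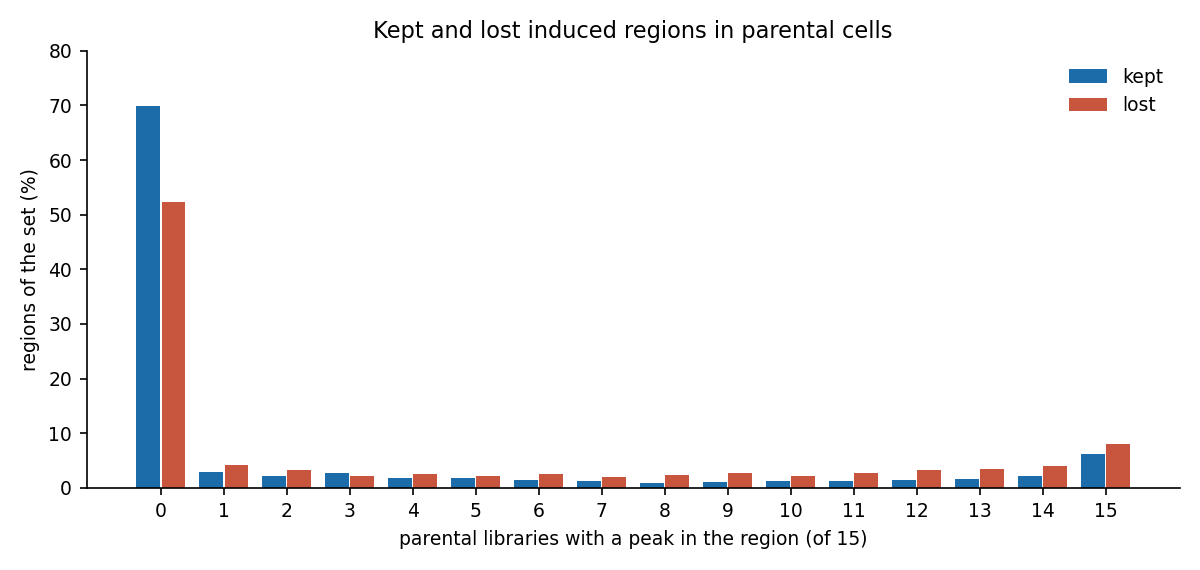
Percent of kept (blue) and lost (red) induced regions by the number of parental libraries, from 0 to 15, with a peak in the region. Most kept regions, 70.0%, had a peak in no parental library, and 6.28% had one in all 15.

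In parental cells more kept regions had a peak after WX-02-23 than in any other group. The share was 24.1%, 23.4% and 23.1% in the 3 WX-02-23 libraries, and 15.2%, 17.5% and 15.8% after DMSO. Every WX-02-23 library lay above every one of the other 12 parental libraries, which ran from 11.6% to 19.2%. Against those 12 the difference was 8.22 points (SE 0.74), from 23.5% ± 0.49 (SD, n = 3) against 15.3% ± 2.4 (SD, n = 12), and the exact permutation test over libraries (two-sided) gave a p of 0.0044, the smallest it can give, also when adjusted over 2 such comparisons. With lists of equal length the difference was 6.27 points with the same p. The WX-02-23 lists, at 93866 to 97445 peaks, were the longest group by mean, at 95673 peaks against 84547 to 94298 in the other groups, while the longest single list, at 98193, was a DMSO one.

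Lost regions had a peak in 28.4%, 26.2% and 27.9% after WX-02-23, within the range of the other 12 libraries, 22.3% to 33.8%. The shares of kept and lost regions lay closer together after WX-02-23: kept minus lost was -4.37, -2.79 and -4.78 points after WX-02-23 and between -16.4 and -10.1 points in the other 12. The difference of 9.03 points (SE 0.81) again had an exact permutation p of 0.0044, and the same after adjustment. In each strength class, an analysis added after seeing the data, the kept-minus-lost value was higher after WX-02-23 than in the other 12 libraries, by 9.72, 12.2, 11.3 and 11.2 points from class 1 to class 4, each with an exact permutation p of 0.0044. The shares of kept regions themselves were higher by 10.3, 10.7, 9.76 and 6.07 points. Kept and lost regions were told apart by the WX-02-23 lists of the WT-FOXA1 line. A response to WX-02-23 shared by both lines would raise the kept share and the kept-minus-lost value through the choice of regions. These tests cannot separate that, since no engineered cells were given WX-02-23 without Dox.

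**Figure D4:**
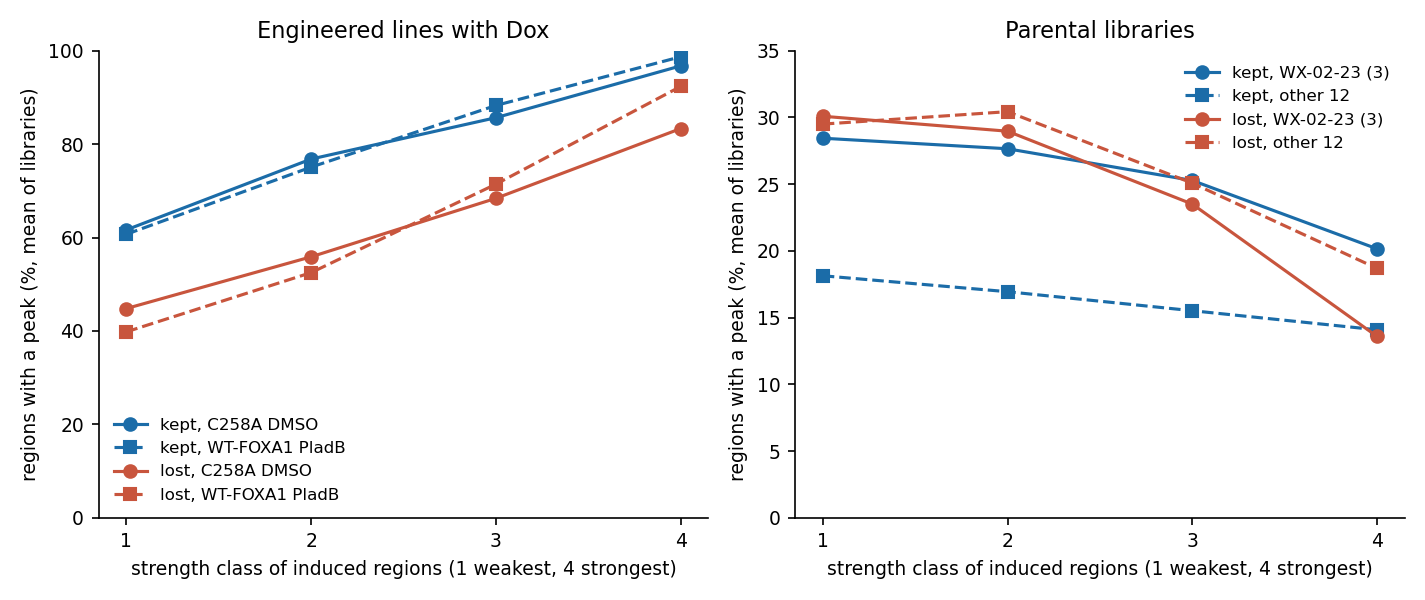
Mean percent of kept (blue) and lost (red) regions with a peak by strength class, from 1 (weakest) to 4, in the WT-FOXA1 DMSO lists, in C258A-FOXA1 DMSO and WT-FOXA1 PladB libraries (left) and in parental WX-02-23 and the other 12 parental libraries (right). In parental cells the kept regions go from 18.1% to 28.4% in class 1 and from 14.1% to 20.2% in class 4, other libraries against WX-02-23, while lost regions go from 29.5% to 30.1% and from 18.7% to 13.6%.

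The pairs of parental treatments were compared one by one, 5 in all, each with 3 against 3 libraries and no exact two-sided p below 0.1 possible. WX-02-23 against DMSO differed by 7.38 points (SE 0.72, exact permutation p of 0.1, adjusted 0.167), with no overlap of the groups. The stereoisomer WX-02-43, at the same dose and time, gave 18.9%, 19.2% and 14.1%, which overlapped DMSO (1.23 points, SE 1.78, exact permutation p of 0.5). WX-02-23 exceeded WX-02-43 by 6.15 points (SE 1.67, exact permutation p of 0.1, adjusted 0.167), again without overlap. WX-02-43 replicate 3, the lowest of its group, came from the library with the highest background of the series, and without it the stereoisomers differed by 4.50 points. The compounds differ only in the arrangement of their stereocentres, and their shares of kept regions did not overlap at 20 µM.

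PladB gave shares that overlapped DMSO at the low dose and lay below it at the high dose. At 10 nM the shares were 16.5%, 14.2% and 14.5%, which overlapped DMSO (-1.09 points, SE 0.96, exact permutation p of 0.3). At 100 nM they were 11.6%, 13.9% and 12.4%, all below DMSO (-3.51 points, SE 0.94, exact permutation p of 0.1, adjusted 0.167). With lists of equal length the difference at 100 nM was -1.13 points. By mean, the 100 nM lists were the shallowest and shortest parental group, at 0.662 to 0.734 reads per base and 82538 to 87426 peaks, and the part of this in the lower share was not tested.

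A part of the kept regions gained a peak in parental cells under WX-02-23. A region was called gained in parental cells when all 3 WX-02-23 and no DMSO library held it, which applied to 2202 regions (1.32% of all). Of the kept regions 198 were gained, which is 3.61% of the kept regions and 8.99% of the gained ones. Of the lost regions 39 were gained (0.828%). The reverse call, all 3 DMSO and no WX-02-23 library, took 13 kept regions (0.237%) and 81 lost regions (1.72%), against 0.858% of all regions. Among the regions of both WT-FOXA1 DMSO lists 0.530% were gained and 0.603% showed the reverse. Against either comparison kept regions had the higher gained share and the lower reverse share, but not every region could show each call. Only 642 kept regions (11.7%) had a peak in all 3 parental DMSO libraries and could show the reverse, while 4339 (79.1%) had none and could be gained. Of the regions of both WT-FOXA1 DMSO lists, 69.6% were held by all 15 parental libraries. These shares of whole sets therefore do not compare rates among regions able to change. Lost regions had the higher reverse share against both, and a gained share below that of all regions but above that of the DMSO lists' regions.

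The other treatments, which share the same DMSO libraries, gained few kept regions. WX-02-43 gained 17 (0.310%, against 0.239% of all regions), PladB at 10 nM gained 11 (0.201%, against 0.286%) and PladB at 100 nM gained 3 (0.0547%, against 0.127%). The reverse call took 5 kept regions with WX-02-43 (0.0912%, against 0.259%), 8 with PladB at 10 nM (0.146%, against 0.390%) and 41 with PladB at 100 nM (0.748%, against 1.14%). Only the 642 kept regions (11.7%) held by all 3 DMSO libraries could show it, while 32.6% of all regions were held by all 15 parental libraries. The reverse shares therefore do not compare rates of loss among regions able to be lost. Set directly against WX-02-43, all 3 WX-02-23 libraries and no WX-02-43 library held 142 kept regions (2.59%, against 1.16%), and 11 showed the reverse (0.201%, against 0.771%). Only 677 kept regions (12.3%) had a peak in all 3 WX-02-43 libraries and could show that reverse. Among the 4339 kept regions without a peak in any parental DMSO library, 7.58%, 7.35% and 7.01% had one in the WX-02-23 libraries. In the 9 libraries of WX-02-43 and PladB the same share was 0.415% to 2.63%. The difference of 6.02 points had an exact permutation p of 0.00909, the smallest that 220 arrangements allow, in a test added after seeing the data. That test pools the 9 libraries as if they were interchangeable, and the rule itself asks for peaks under WX-02-23 in the WT-FOXA1 line. Most of the 4339 stayed without a peak under WX-02-23 as well: 3895 had none in any of the 3 libraries.

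**Figure D5:**
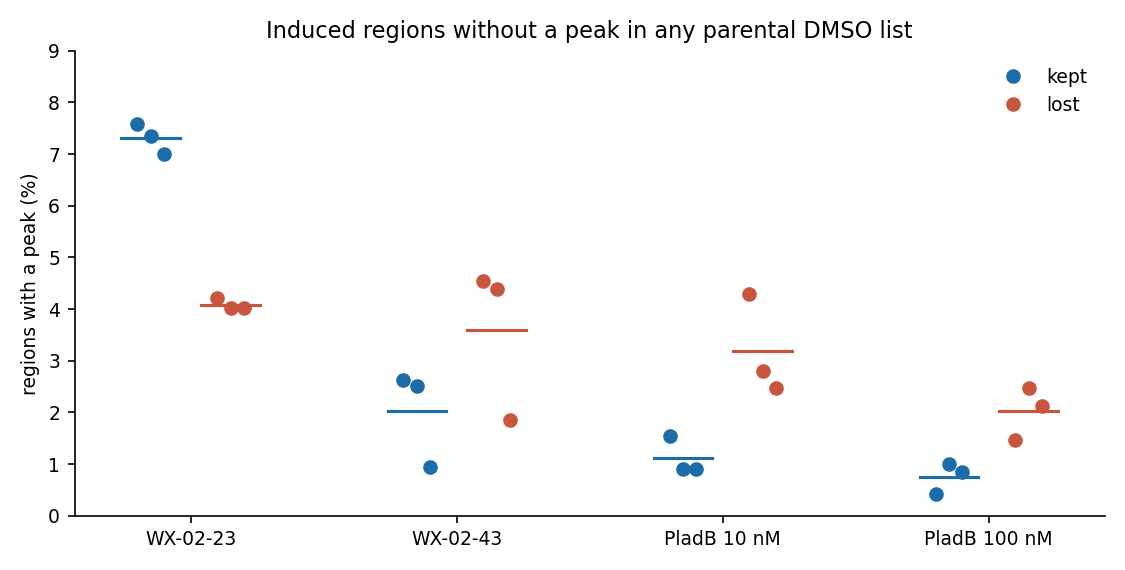
Percent of the induced regions without a peak in any parental DMSO library (4339 kept, blue; 2866 lost, red) that had a peak in each parental library of the 4 treatments; points are libraries and bars group means. Kept regions reach 7.01% to 7.58% after WX-02-23 and 0.415% to 2.63% after the other treatments, while lost regions lie at 1.47% to 4.54% throughout.

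Where parental WX-02-23 libraries held a kept region, its peak also stood at a higher rank within its list. The median percentile of held kept regions was 43.0, 42.3 and 42.2 in the WX-02-23 lists and 31.4 to 33.3 in the DMSO lists. At held lost regions it was 27.5 to 28.3 after WX-02-23 and 29.1 to 29.8 after DMSO. These medians run over different regions in each list and were not tested.

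By median rank in the WT-FOXA1 line, the 198 gained regions stood below kept regions without a parental peak after DMSO and above them after WX-02-23. Their median percentile in the WT-FOXA1 line was 41.7 after DMSO and 45.6 after WX-02-23, against 48.4 and 38.2 for kept regions without a parental peak. In the C258A-FOXA1 line they had a peak in 74.5% after DMSO and 89.9% after WX-02-23 (means of 2 libraries), against 90.0% and 90.2% for kept regions without a parental peak. PladB libraries of the WT-FOXA1 line held 86.6% of them. Ranks from lists of different length show no change by themselves, and both WT-FOXA1 list groups ranked here are in the rule. Differences between these classes were not tested.

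No other parental library held 89 of the 198, which is 1.62% of the kept regions, against 0.525% of all regions and 0.169% of the regions of both WT-FOXA1 DMSO lists. The reverse, a peak in the other 12 and in no WX-02-23 library, applied to 2 kept regions (0.0365%, against 0.100%). At most the 642 kept regions held by all 3 parental DMSO libraries could show it. Of the 89, the 5 strongest were held by all 6 C258A-FOXA1 and both WT-FOXA1 PladB libraries. The first lay on chromosome 1 from 52116283 to 52116835, with fold values of 6.60, 5.81 and 6.24 in the parental WX-02-23 lists, and in the WT-FOXA1 line 16.3 and 14.2 after DMSO and 9.79 and 9.40 after WX-02-23. The next lay on chromosome 8 from 82289271 to 82289781, with parental values of 8.02, 4.88 and 7.28. The region on chromosome 5 from 93495485 to 93496552 had 5.07, 5.86 and 6.83. All 3 were called in every parental WX-02-23 list and in no other parental list. The region on chromosome 9 from 88223793 to 88224343 had the highest values of the 5 in each parental WX-02-23 list, at 9.30, 9.20 and 8.06. The region on chromosome 7 from 94832450 to 94833033 had 5.84, 5.92 and 4.51.

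Kept regions lay farther than lost ones from chromatin open throughout the series. The median distance to the nearest region open in all 29 libraries was 40.8 kb, against 35.3 kb for lost regions and 21.2 kb for all regions of both DMSO lists. Within 25 kb, 1791 kept regions (32.7%) had another induced region as their neighbour, and in 49.7% of these cases the nearest one was kept. Beside lost regions the nearest induced neighbour was kept in 42.1%, and over all induced regions with such a neighbour in 45.9%.

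Chromosomes differed in their share of kept regions. Chromosome 7 carried 487 (8.88% of the kept regions, against 6.47% of the regions of both DMSO lists) and chromosome 4 carried 451 (8.23% against 5.15%). Chromosome 19, which is gene-rich, carried 49 (0.894% against 4.29%), and chromosome 17 carried 107 (1.95% against 4.26%). Among the induced regions of a chromosome, the kept share was 49.1% on chromosome 7 and 50.3% on chromosome 21, 30.4% on chromosome 19 and 26.1% on chromosome X. These shares were not tested.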

How the data were processed

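ATAC-seq libraries came from a commercial kit, according to the protocols in the labels. The submitters' processing notes name Bowtie2 (alignment), MACS2 (peaks) and build hg19. The sources used here do not give versions, options, removal of duplicates or a shift for the transposase. Each library has its own list, and for every peak the authors deposited a score, a fold over local background (a ratio), −log10 values of p and q, and the offset of the summit. In each deposited list the lowest −log10 q was 2.00 to 2.15 (a q-value of 0.01). Fold and p-values were used only within a list.

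Groups came from the labels. Peaks of all 29 lists except those on chrM were merged where they overlapped or touched. Overlap of a peak by 1 bp or more counted as held. The merge was checked against bedtools 2.31.1. The relative depth was read from the even steps in the fold values: 14.3% to 25.2% of peaks per list matched a step (tolerance 0.0001) and its Poisson p-value (tolerance 0.01 in −log10 p). Read totals were not given.

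The members and lists were chosen with earlier results of these data known. Shares of regions held were compared by permuting libraries (exact, two-sided), with Benjamini-Hochberg adjustment within families of 5, 2 and 3 comparisons. The member rule and tests were checked on simulated data. Regions named by position were, by a rule, the 5 strongest members, the 5 strongest that only WX-02-23 opened in parental cells, the 3 strongest open in all 6 C258A-FOXA1 and no parental library (which repeat the first list) and the 3 strongest in no C258A-FOXA1 library. Alternatives were a stricter threshold (q-value up to 1e-05), lists cut to 62832 peaks, 50% of a region covered, regions from the engineered lists, a rule content with 1 of 2 WX-02-23 libraries, a replicate block, and leaving out each library. Motifs, promoters and gene names were planned and not analysed here, since no genome of build hg19 was used. The software was Python 3.11.15 with scipy 1.17.1, pandas 2.3.3, numpy 2.4.6 and matplotlib 3.10.9.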

Additional observations from a re-analysis of the deposited data

How the results depend on the processing

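Over 16 results, 277 alternative values were computed. For 8 of the 16 the groups are too small for the test to reach 0.05, so their side of the threshold says nothing about stability. Outside the leave-one-out values, 87 kept direction and side of the threshold or stayed within the spread between replicates or 1.5 times a count, and 12 did not. Among the leave-one-out values these were 162 and 16. The kept regions numbered 3399 with 50% of a region covered and 8253 where 1 of 2 WX-02-23 libraries was enough, and 6012 to 7237 when a library of the rule was left out. The share of induced regions kept was 37.9% with a q-value of 1e-05 or below, 61.0% with lists of equal length, 29.7% with 50% covered and 63.7% with 1 of 2 libraries, and 28.5% to 55.8% when a library was left out. The median percentile of the kept regions was 39.9 with lists of equal length, 56.1 with 50% covered and 40.5 with 1 of 2 libraries, and 42.4 to 46.5 when a library was left out. Their share with a peak in C258A-FOXA1 DMSO libraries was 83.5%, 81.5% and 83.0% under the same 3 alternatives, and 83.4% to 88.1% when a library was left out. The WX-02-23 difference in the C258A-FOXA1 line ran from -1.31 points, the reversed value, to 5.53 points when a library was left out. Looser or stricter calling changes which weak regions enter, by construction. Both differences of parental WX-02-23 from the other 12 libraries kept exact permutation p-values below 0.05 in all alternatives tried. They were 6.07 to 10.7 points for the kept regions and 7.05 to 12.2 points for kept minus lost. With the replicate number as a block these differences, 8.22 and 9.03 points, had an exact permutation p of 0.016, the smallest that 125 arrangements allow, and under the block the other 8 tests could not pass either. Whether the replicate numbers pair the samples is not known. Over 30 same-numbered parental pairs the deviations correlated at -0.064 to 0.051, against -0.066 to 0.055 for different numbers. For parental DMSO and WX-02-23 alone the mean was 0.018 for the same number and -0.0089 for different numbers. Correlations this low cannot decide the question. The effect of depth was not tested, since read totals were not given.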
